A study of Homo sapiens with 45 samples.

Results

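The heterogeneous nuclear ribonucleoprotein (hnRNP) genes and the serine/arginine-rich splicing factor (SR protein) genes were followed in 3 neuroblastoma cell lines before and during palbociclib (PB) treatment. Members were all genes whose symbol is HNRNP or SRSF followed by letters and digits, without the ending of a pseudogene, which gave 23 HNRNP genes and 12 SRSF genes among 29159 genes in the count tables. The choice used names and no measured value. Another 89 entries with the same name pattern but a pseudogene ending were left out.

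The lines are established and of the adrenergic (ADRN) type. SK-N-BE(2)C carries amplified MYCN and a 1p loss, IMR-32 carries amplified MYCN and MEIS1 with a 1p loss, and SH-SY5Y carries mutant ALK with gains of 1q and 17q. Where values are given for the 3 lines in turn, they follow this order. PB, an inhibitor of the cell-cycle kinases CDK4 and CDK6, was given at 1 μM for 24 h in every line and for 7 days in SK-N-BE(2)C or 5 days in IMR-32 and SH-SY5Y, and untreated control libraries were collected with the 24 h samples. Each of the 9 groups held 5 biological replicates, described in the methods as separate passages plated in independent experiments, and poly(A) RNA was sequenced from all 45 libraries. Time in culture therefore differed between control and the longer treatment, and the line and the length of the longer treatment cannot be told apart for SK-N-BE(2)C. Each set of 15 libraries comes from a single established line, grown as cell culture.

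SR proteins carry RNA-binding domains and a tail rich in arginine and serine that kinases phosphorylate. They mostly bind exonic enhancers, where they help the spliceosome to recognise an exon. hnRNP proteins coat nascent transcripts and often act at silencers or within introns to favour skipping, and many also shape mRNA export, stability and translation. In neural tissue both families help to set the exon choices that separate dividing precursors from neurons.

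Library totals ran from 13459219 to 25441812 counts (median 18494528). Of 8 ADRN identity genes, all 8 had a mean over 1 CPM (the authors' scaling of a count by its library's total) in IMR-32 and SK-N-BE(2)C. In SH-SY5Y 7 did, and TH lay under 1 CPM. Their summed level in the SK-N-BE(2)C controls ran from 2077 to 2390.3 CPM against 2571 to 3089 at 7 days, from 2024 to 3076 against 2891 to 3527 in IMR-32 at 5 days, and from 3909 to 5163 against 4075 to 5854 in SH-SY5Y at 5 days, where the ranges overlapped in both IMR-32 and SH-SY5Y. At 24 h it ran from 2933 to 3147, from 3176 to 3982 and from 5715 to 7537 CPM in the 3 lines in turn, above every control of the line. By gene, 0, 1 and 1 of the 8 were called higher at the longer time (a call is defined below), and 1 was called lower in each line. All genes called higher were 24.5%, 16.6% and 18.6%, and lower 22.3%, 15.5% and 17.3%. At 24 h 1, 4 and 2 were called higher and 0 lower (all genes higher 10.9%, 7.87% and 10.5%). Of 9 mesenchymal-type (MES) genes, 8 were present in the tables, and their summed level in the SK-N-BE(2)C controls ran from 543 to 759.6 CPM against 350.2 to 658 at 7 days, from 337 to 918 against 142 to 276 in IMR-32 at 5 days, and from 1239 to 1671 against 949 to 1059 in SH-SY5Y at 5 days. At 24 h it ran from 470.4 to 704, from 263 to 691 and from 1087 to 1571 CPM in the 3 lines in turn, and overlapped the controls in each. In IMR-32 only 4 of the MES genes had a mean over 1 CPM in controls and at 24 h, and 2 at 5 days. FOSL1, one of these MES genes, was at 0 in the treated IMR-32 groups. The part of these marker levels in the values below was not tested. IMR-32 replicate 5 stood apart from its group: chi-square per degree of freedom between its control library and the other 4 was 56.8 to 85.9, against 4.16 to 12.4 among those 4. In SK-N-BE(2)C, replicates 3 to 5 lay closer to each other (2.43 to 3.18 in controls) than the other pairs did (11.2 to 19.2), and likewise at 24 h (1.69 to 2.42 against 7.05 to 23.6), while at 7 days the ranges overlapped (5.60 to 29.5 against 19.3 to 77.8).

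Upstream sequence of 4 members is shown first, as an example of each motif searched and of a window without any. RefSeq (GRCh38.p14) promoter windows matched 33 of 35 members, and the 250 bases before the annotated start were searched on both strands for E2F sites (TTTCCCGC, TTTGGCGC, TTTCGCGC or TTTGCCGC), the MYC-type E-box CACGTG and the CCAAT box CCAAT. HNRNPA3 holds all 3 motifs, HNRNPD holds an E-box, SRSF3 holds CCAAT boxes, and SRSF12 holds none of these letters. The windows of SRSF1, SRSF4, SRSF7, SRSF9, HNRNPH1 and HNRNPUL1, members called lower in at least 2 lines at the longer time, hold none either. Capitals mark motif matches on either strand.
HNRNPA3 (GRCh38.p14 chr2:177212544-177212793, plus strand): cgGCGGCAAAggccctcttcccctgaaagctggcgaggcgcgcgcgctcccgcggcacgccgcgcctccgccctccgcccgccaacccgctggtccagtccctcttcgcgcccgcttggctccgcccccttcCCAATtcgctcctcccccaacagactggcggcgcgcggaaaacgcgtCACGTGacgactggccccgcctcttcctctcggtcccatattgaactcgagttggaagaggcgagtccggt
HNRNPD (GRCh38.p14 chr4:82373992-82374241, minus strand): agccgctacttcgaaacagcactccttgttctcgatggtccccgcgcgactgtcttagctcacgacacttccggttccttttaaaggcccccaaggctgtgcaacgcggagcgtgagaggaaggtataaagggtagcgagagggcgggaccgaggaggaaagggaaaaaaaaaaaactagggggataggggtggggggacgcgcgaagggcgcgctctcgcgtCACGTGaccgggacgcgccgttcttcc
SRSF3 (GRCh38.p14 chr6:36594112-36594361, plus strand): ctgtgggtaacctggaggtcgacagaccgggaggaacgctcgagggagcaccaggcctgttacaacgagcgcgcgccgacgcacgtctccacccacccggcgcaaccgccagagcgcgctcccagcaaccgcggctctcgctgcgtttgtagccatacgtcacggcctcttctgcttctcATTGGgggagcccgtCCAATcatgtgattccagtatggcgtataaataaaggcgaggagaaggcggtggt
SRSF12 (GRCh38.p14 chr6:89118072-89118321, minus strand): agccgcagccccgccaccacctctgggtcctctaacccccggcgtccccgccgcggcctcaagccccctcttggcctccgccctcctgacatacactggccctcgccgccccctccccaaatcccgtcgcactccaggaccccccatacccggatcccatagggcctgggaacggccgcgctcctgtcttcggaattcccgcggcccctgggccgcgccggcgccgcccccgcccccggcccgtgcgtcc

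An E2F form was present in 4 of the 33 member windows (12.1%) against 2.79% of 35116 windows of the same length, an E-box in 6 (18.2% against 6.34%), and a CCAAT box in 17 (51.5% against 32%). The median GC content of the member windows was 64.8%, against 58.0% over all windows. Among the 9 matched members called lower in all 3 lines at the longer time (a call is defined below), 0 held an E2F form, 2 held an E-box and 5 held CCAAT. The 35116 windows were not limited to expressed or protein-coding genes, to a like GC content, or to a single window per symbol as the members were. These matches are descriptions of letters in a window.

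In untreated cells HNRNPA1, a repressor of many alternative exons, had mean levels of 259, 488 and 295 CPM per kb of merged exon in the 3 lines in turn, the highest of the members in IMR-32 and SH-SY5Y. HNRNPAB, which binds RNA and single-stranded DNA, stood at 343, 241 and 213 CPM per kb and was the highest in SK-N-BE(2)C on this scale. Merged exons cover 6697 bases for HNRNPA1 and 2118 for HNRNPAB. The order of members therefore depends on annotated length, which counts every annotated exon whether used or not. HNRNPK, a binder of C-rich RNA, came next in every line, with levels that spanned only 170 to 178 CPM per kb. SRSF2, a classical SR protein of nuclear speckles, stood at 129, 153 and 141 CPM per kb, and HNRNPA2B1, a close relative of HNRNPA1, at 129, 110.1 and 155 CPM per kb. The order of these last members differed between lines, and their SK-N-BE(2)C means were alike. At the low end of the tested members were SRSF12 (2.62, 3.37 and 5.61 CPM per kb) and SRSF10 (3.97, 4.38 and 4.45 CPM per kb).

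**Figure D1:**
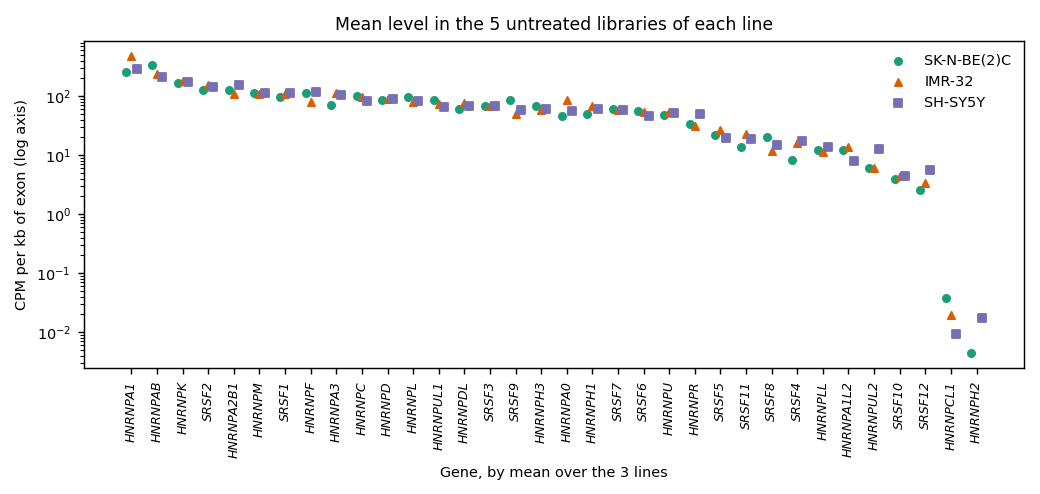
Mean untreated level of 34 members in CPM per kb of merged exon (log axis), 1 marker per line, each the mean of 5 control libraries. HNRNPA1 and HNRNPAB lie highest, SRSF10 and SRSF12 are the lowest tested members, HNRNPCL1 and HNRNPH2 lie near 0, and HNRNPCL2, with no count in any control, is not drawn, nor is HNRNPH2 in IMR-32.

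Between untreated lines, a gene was called where edgeR's quasi-likelihood test gave a Benjamini-Hochberg adjusted p under 0.05 over all 16282 genes tested and the absolute log2 difference exceeded 0.5. SK-N-BE(2)C was higher than IMR-32 for 4 and lower for 5 of 32 tested members, where 30.8% and 31.3% of all genes were called. Against SH-SY5Y it was higher for 6 and lower for 3 (all genes 27.9% and 29.7%), and IMR-32 was higher than SH-SY5Y for 4 and lower for 3 (26.6% and 27.7%). The count higher than IMR-32 was 2 with RLE factors, without a filter on low counts, with DESeq2 and without replicate 4 of every line. All genes called in either direction were 61.9%, 38.7%, 36.6% and 60.7% in these fits, against 62.1% in the main fit. In each pair the share of members called was below that of all genes. With library size alone, which moved the median difference of all genes to -0.19 and -0.18 for the pairs with SH-SY5Y, 3 members were higher and 5 lower for SK-N-BE(2)C (all genes 57.1% in either direction) and 3 higher and 4 lower for IMR-32. SRSF4, the largest classical SR protein, had a log2 difference (SK-N-BE(2)C minus IMR-32) of -0.98 ± 0.08 (SE), with control libraries at 84.0, 72.2, 68.6, 69.7 and 66.7 CPM in SK-N-BE(2)C and 145, 136, 142, 155 and 145 CPM in IMR-32. HNRNPA1 was higher in IMR-32 than in SH-SY5Y by 0.91 ± 0.11 on the log2 scale. SRSF8, an expressed copy of SRSF2 that lacks introns, was higher in SK-N-BE(2)C than in IMR-32 by 0.83 ± 0.08. The ranges of these members did not overlap between the lines compared.

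Both families took a smaller share of all counts under PB, given here as sums with no test. The 23 hnRNP genes together stood at 12409, 12086, 12161, 12235 and 12027 CPM in the SK-N-BE(2)C controls, at 9290.3, 9086, 9227, 9225 and 9334 after 24 h and at 7655, 6294, 6975, 7730.2 and 7456 after 7 days. The means were 75.8% and 59.3% of control, and the 3 groups did not overlap. In SH-SY5Y the same sum went from 12837 ± 233 (SD, n = 5) to 8891 ± 426 and 7137 ± 873 CPM, or 69.3% and 55.6% of control, again without overlap with control. In IMR-32 the controls stood at 13129.9, 12658, 14292, 13166 and 16194 CPM and the 24 h libraries at 11586, 12089, 11886, 11316 and 12735, so that the groups overlapped and the highest control was replicate 5. After 5 days the IMR-32 sum was 9812 ± 794 CPM, 70.6% of control. Without control replicate 5 the IMR-32 means were 89.6% and 73.7% of control, and the 24 h groups still overlapped. With replicate 5 left out of all its groups the IMR-32 means were 88.0% and 71.9% of control. The highest 24 h library (12089 CPM) then lay below the lowest control (12658 CPM). CPM gives each gene's share of a library, and fewer cells of one kind and less RNA per cell cannot be told apart in bulk RNA.

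The 12 SRSF genes summed to 2751 ± 52.5, 2062 ± 48.1 and 1495 ± 204 CPM in SK-N-BE(2)C (control, 24 h, 7 days; 74.9% and 54.4% of control). In SH-SY5Y the sum was 2803 ± 56.9, 1979 ± 111 and 1567 ± 233 CPM, at 70.6% and 55.9% of control. In IMR-32 the SRSF sum was 2876 ± 381 CPM in controls and stood at 82.7% of control at 24 h and 82.3% at 5 days, with libraries at 2347, 2416, 2389.7, 2253 and 2491 and 2246, 2262, 2500.2, 2416 and 2408 CPM. The 24 h and 5 day ranges overlapped there, and without control replicate 5 the shares were 87.5% and 87.0%. The left-out pseudogene entries summed to 14.3 to 37.3 CPM per library.

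**Figure D2:**
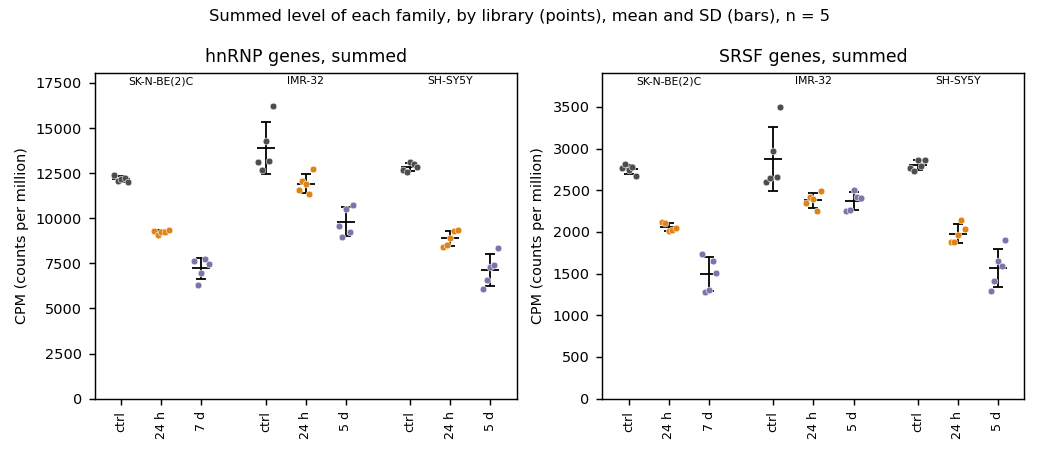
Summed CPM of the hnRNP genes (left) and the SRSF genes (right) in each of 45 libraries (points), with the mean and SD of 5 libraries (bars), for control, 24 h PB and the longer PB treatment of each line. Every treated library of SK-N-BE(2)C and SH-SY5Y lies below every control, and the SRSF sum of IMR-32 stands at 82.7% and 82.3% of control at its 2 times.

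Within each line, members were tested against control with edgeR's quasi-likelihood test on all genes that passed a filter on low counts (14055, 14293 and 14547 genes in the 3 lines in turn), under the limits given above. Of the 35 members, 32 were tested in every line, since HNRNPCL1, HNRNPCL2 and HNRNPH2 had too few counts. At 24 h, 14 of 32 fell in SK-N-BE(2)C, where 10.6% of all genes were called lower, with a median log2 fold change of -0.46 over the 32 against 0.02 over all genes. With replicates 3 to 5 summed to 1 library 11 fell there (all genes in either direction 16.4%, against 21.5% unsummed). In SH-SY5Y 18 fell (all genes 11.0%; medians -0.55 and 0.04). IMR-32 had 4 lower members (HNRNPD, HNRNPF, SRSF2 and SRSF10) and 1 higher, SRSF8 (all genes 10.5% and 7.87%; medians -0.27 and 0.06). Without control replicate 5, SRSF8 was the only member called in IMR-32, by edgeR's quasi-likelihood test, while 3 members were called lower with all 3 libraries of culture 5 left out. All genes called in either direction were 15.5% and 20.2% in these fits, against 18.3% with all libraries. With all libraries, 18 members were called at adjusted p alone (16 of them lower), as were 33.1% of all genes. DESeq2 called 5 lower (10.3% of all genes in either direction, with no filter on low counts).

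At the longer time 22 of 32 members fell after 7 days in SK-N-BE(2)C and 1, SRSF12, rose (all genes 22.3% lower and 24.5% higher; member median -0.69, all genes 0.01). After 5 days, 27 fell in SH-SY5Y (all genes 17.3%; medians -0.80 and 0.01), and in IMR-32 11 fell and SRSF8 rose (all genes 15.5% and 16.6%; medians -0.43 and 0.00). In IMR-32 9 fell both without control replicate 5, where SRSF8 was not called, and without culture 5, where it was. These fits called 30.2% and 35.0% of all genes in either direction, against 15.5% lower and 16.6% higher with all libraries. Split by family, 15 hnRNP and 7 SRSF genes fell at 7 days in SK-N-BE(2)C. At 5 days 7 and 4 did in IMR-32, against 19 and 8 in SH-SY5Y. Between 24 h and the longer time a further decrease was called for 10 members in SK-N-BE(2)C (all genes 14.4%), for 3 in IMR-32 (8.86%) and for 5 in SH-SY5Y (6.23%). The SH-SY5Y count was 3 without 5 day replicate 1 and 9 without 5 day replicate 5. All genes called in either direction were 15.2% and 18.8% there, against 16.7% with all libraries.

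**Figure D3:**
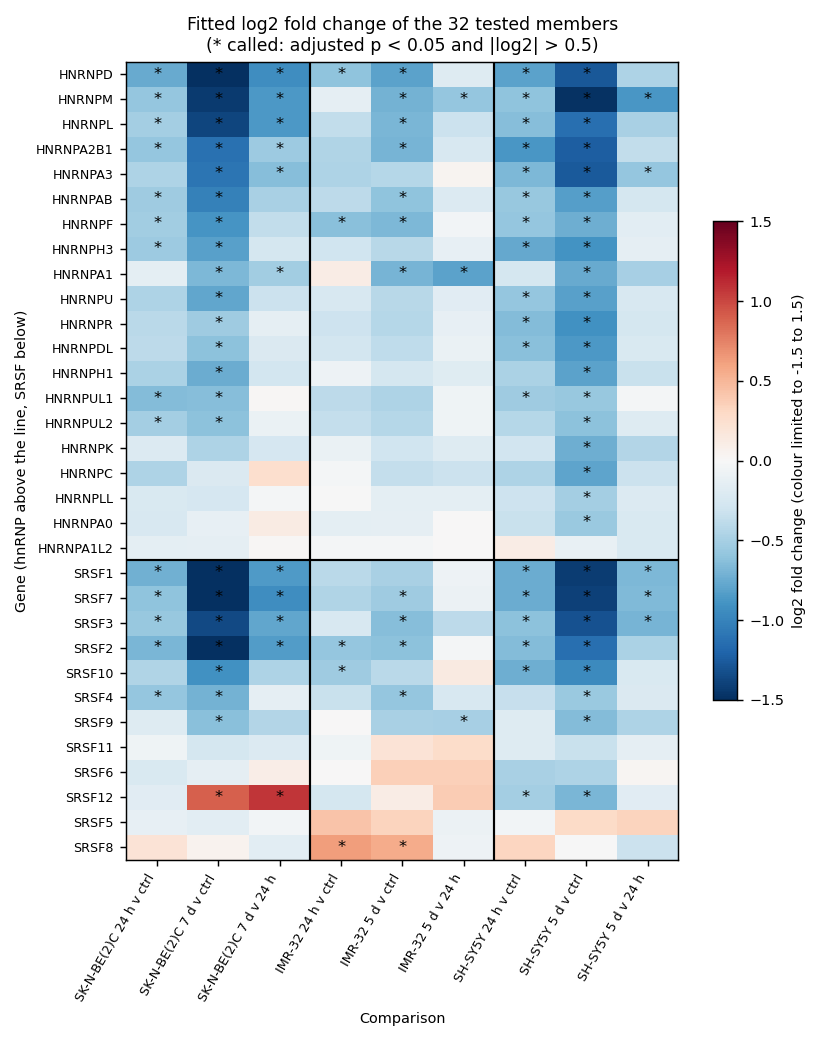
Fitted log2 fold change (colour, blue lower and red higher) of the 32 tested members in 9 comparisons, with an asterisk where a member was called. Columns against control are blue for most members, SRSF12 rises in SK-N-BE(2)C at 7 days (0.90), and SRSF8 rises in IMR-32 (0.63 and 0.55).

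Counted on CPM without a fit, every treated library lay below every control for 24 members at 24 h and 25 at 7 days in SK-N-BE(2)C, where 18.1% and 27.0% of all tested genes did so. The counts were 12 and 22 in IMR-32 (13.8% and 19.4%) and 27 and 29 in SH-SY5Y (18.1% and 20.0%). SRSF8 was the member with every treated library above every control at 24 h, in each of the 3 lines (all genes 21.2%, 9.26% and 20.4% in turn). At the longer time SRSF12 lay above in SK-N-BE(2)C (26.8%), SRSF5 and SRSF8 did in IMR-32 (19.7%), and no member did in SH-SY5Y (27.0%).

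By member, HNRNPD, HNRNPF and SRSF2 were called lower in all 3 lines at 24 h, 3 of 32 members, as were 5.81% of the 12556 genes tested in every line. Without IMR-32 control replicate 5, the count for all 3 lines was 0, since no member was called lower in IMR-32. At that time 6 hnRNP and 4 SRSF genes were called lower in 2 lines (all genes 3.60%), and 5 and 2 in 1 line (7.12%). At the longer time 11 were (all genes 6.50%): HNRNPA1, HNRNPA2B1, HNRNPAB, HNRNPD, HNRNPF, HNRNPL, HNRNPM, SRSF2, SRSF3, SRSF4 and SRSF7. Another 11 members were called lower in 2 lines (all genes 9.42%), 5 in 1 line (15.8%), and HNRNPA1L2, SRSF5, SRSF6, SRSF8 and SRSF11 in no line. Among these, the IMR-32 calls of SRSF2 and SRSF7 stood close to the limit: without control replicate 5 their 5 day log2 fold changes were -0.46 and -0.43, and without culture 5 they were -0.49 and -0.50.

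The A/B-type hnRNP proteins bind AG-rich and UAG motifs and mostly repress exons. HNRNPD (AUF1), a binder of AU-rich elements that promotes decay of short-lived mRNAs, had the largest decrease of all members in SK-N-BE(2)C at both times. Its gene lies at chr4:83273651-83295656 on the minus strand (GRCh37). The SK-N-BE(2)C controls stood at 621, 566, 575, 628 and 592 CPM, the 24 h libraries at 373, 362, 344, 347 and 374 and the 7 day libraries at 247, 121, 154, 224 and 204. The groups did not overlap, and the log2 fold change was -0.76 ± 0.14 (SE; adjusted p = 0.000449) at 24 h and -1.69 ± 0.15 (SE; adjusted p = 5.87e-08) at 7 days by edgeR's quasi-likelihood test, a level 3.23-fold lower. IMR-32 held 598, 482, 651, 582 and 833 CPM in controls, 393, 393, 373, 368 and 484 at 24 h and 369.9, 319, 395, 323 and 415 at 5 days. Replicate 5 was the highest IMR-32 library at each time, and one 24 h library lay above the lowest control. The IMR-32 log2 fold changes were -0.60 ± 0.13 and -0.80 ± 0.13 (SE), and the first of them was -0.47 without control replicate 5. SH-SY5Y controls ran at 609, 610.2, 669, 677 and 604 CPM against 370.1, 349, 385, 331 and 397 at 24 h and 219, 248, 289.9, 284 and 340.2 at 5 days, with log2 fold changes of -0.80 ± 0.10 and -1.27 ± 0.10. All 10 treated SH-SY5Y libraries were below the 5 controls.

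HNRNPA1 fell in every line by the longer time and was not called in any at 24 h. Its gene lies at chr12:54673977-54680872 on the plus strand (GRCh37). In SK-N-BE(2)C its level was 1867, 1652, 1731, 1675 and 1733 CPM in controls, 1643, 1384, 1631, 1652 and 1658 at 24 h and 1101, 834, 1188, 1294 and 1190.3 at 7 days, and the 24 h libraries overlapped the controls. IMR-32, where the gene was highest, held 3233, 3159, 3492, 3340.2 and 3116 CPM in controls, 3392, 3821, 3424, 3355 and 3109 at 24 h and 2014, 1815, 2368, 1946 and 2034 at 5 days. The 24 h log2 fold changes were -0.15, 0.11 and -0.26 in the 3 lines in turn, with adjusted p of 0.194, 0.331 and 0.13 by edgeR's quasi-likelihood test, none of them called. At the longer time they were -0.67 ± 0.09, -0.69 ± 0.09 and -0.75 ± 0.14 (SE), all called lower. The step from 24 h to 5 days was -0.81 ± 0.09 in IMR-32, the largest such step of any member there, and -0.49 ± 0.14 in SH-SY5Y, just short of the fold limit. With replicate number as a block the SH-SY5Y step was -0.51 (adjusted p = 0.000114, edgeR's quasi-likelihood test) and was called.

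HNRNPA2B1, which binds UAG-containing RNA and takes part in mRNA transport in neurons, fell in SK-N-BE(2)C from 1632 ± 55.7 CPM (SD, n = 5) to 1118 ± 35.6 at 24 h and 771 ± 136 at 7 days. SH-SY5Y went from 1961 ± 99.2 to 1083 ± 63.9 and 872 ± 133 CPM, and its 24 h decrease, -0.87 ± 0.09 on the log2 scale, was the largest of any member in that line at that time. In IMR-32 the 24 h log2 fold change of -0.45 ± 0.12 was under the fold limit and the 5 day one of -0.70 ± 0.12 was called. HNRNPAB fell in the 3 lines, with longer-time log2 fold changes of -1.02 ± 0.09, -0.60 ± 0.12 and -0.83 ± 0.08 in the 3 lines in turn. HNRNPA3, another HNRNPA1 relative, fell from 678 ± 16.3 to 298 ± 57.4 CPM in SH-SY5Y and from 471 ± 12.3 to 226 ± 36.3 in SK-N-BE(2)C. The 5 day log2 fold change in IMR-32 was -0.43 ± 0.12 and was not called. Exons of NFE2L2 on the opposite strand share 53.6% of the merged exon bases of HNRNPA3, and no source used here gives the strand setting of the deposited counts.

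HNRNPF, which binds runs of G and often acts at weak exons, fell in the 3 lines at 24 h. Its controls stood at 349, 341, 395, 396 and 383 CPM in SK-N-BE(2)C, with 257, 262, 267, 266 and 279.8 at 24 h and 228, 189.6, 182, 216 and 219.6 at 7 days. SH-SY5Y libraries were at 377, 379.8, 387, 372 and 382 CPM in controls, 252, 239, 259, 268 and 266 at 24 h and 226, 231, 248, 229 and 262 at 5 days. IMR-32 held 242, 231, 247, 233 and 346 CPM in controls, 156, 149, 150.4, 155 and 207 at 24 h and 160.3, 150.1, 170.3, 144 and 197 at 5 days. All treated libraries were below all controls of their line, and replicate 5 was again the highest library of IMR-32. The 24 h log2 fold changes were -0.52 ± 0.07, -0.63 ± 0.13 and -0.58 ± 0.06 (SE) in the 3 lines in turn, and the IMR-32 value was -0.50, not past the limit, without control replicate 5. Leaving out SK-N-BE(2)C control replicate 3 or 4 also brought that line's 24 h value to -0.50. The step from 24 h to the longer time was not called in any of the lines, at -0.37, -0.05 and -0.16.

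HNRNPL, a binder of CA repeats, and HNRNPM, a binder of GU-rich sites, fell in the 3 lines at the longer time, and the step after 24 h was called in SK-N-BE(2)C for HNRNPL and in every line for HNRNPM. HNRNPL stood at 670.1, 619, 614, 612 and 628 CPM in SK-N-BE(2)C controls, 449, 469, 437, 448 and 447 at 24 h and 313, 190.0, 182, 292 and 269 at 7 days, and the 3 groups did not overlap. Its longer-time log2 fold changes were -1.38 ± 0.13, -0.69 ± 0.10 and -1.13 ± 0.09 in the 3 lines in turn. The SH-SY5Y step after 24 h, -0.49 ± 0.09, was not called, but was called at -0.50 with replicate number as a block (adjusted p = 5.64e-05, edgeR's quasi-likelihood test). HNRNPL at 24 h in SK-N-BE(2)C, -0.52, was -0.49 without control replicate 1. HNRNPM had libraries at 657, 604, 706, 671 and 591 CPM in SH-SY5Y controls, 423, 384, 449.6, 442 and 447 at 24 h and 162, 202, 286, 231 and 332 at 5 days. It was the member with the largest 5 day decrease in that line, at -1.48 ± 0.15 (SE; adjusted p = 2.7e-07), 2.79-fold lower. In IMR-32 HNRNPM was not called at 24 h (-0.13 ± 0.15, adjusted p = 0.535, edgeR's quasi-likelihood test) and fell at 5 days (-0.71 ± 0.15). HNRNPK moved less, with log2 fold changes of -0.29 and -0.46 at the longer time in IMR-32 and SK-N-BE(2)C, which were not called, and -0.73 ± 0.07 in SH-SY5Y, which was.

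Among the SR proteins, SRSF1 (SF2/ASF), which recruits the spliceosome to purine-rich enhancers, had SK-N-BE(2)C libraries at 561, 621, 558, 553 and 548 CPM in controls, 378, 388, 324, 337 and 333 at 24 h and 274, 152, 129.8, 226 and 201 at 7 days. The 3 groups did not overlap, and the 7 day log2 fold change was -1.57 ± 0.16 (SE; adjusted p = 3.23e-07), 2.97-fold lower. In SH-SY5Y the controls were at 655, 635, 638, 648 and 662 CPM, against 366, 369, 385, 418 and 408 at 24 h and 183, 222, 256, 279 and 325 at 5 days. IMR-32 had 545, 581, 614, 566 and 816 CPM in controls, 451, 422, 453, 439.7 and 518 at 24 h and 425, 424, 473, 468 and 463 at 5 days, and the ranges of its treated groups overlapped. The 5 day log2 fold change was -1.42 ± 0.11 in SH-SY5Y and -0.48 ± 0.10 in IMR-32, where it missed the fold limit (DESeq2 gave -0.51). An uncharacterised transcript on the same strand shares 32.7% of the exon bases of SRSF1.

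SRSF2 (SC35), an activator of many exons (chr17:74730197-74733415, minus strand, GRCh37), fell in SK-N-BE(2)C from 385, 399, 376, 382 and 381 CPM to 269.8, 269.9, 226, 228 and 224 at 24 h and 185, 97.6, 97.3, 164 and 145 at 7 days. SH-SY5Y controls at 394, 418, 405, 420.0 and 455 CPM compared with 242, 261, 261, 302 and 276 at 24 h and 153, 185, 207, 203 and 256 at 5 days. IMR-32 stood at 384, 415, 462, 387 and 624 CPM in controls, 280.2, 309.9, 277, 259.9 and 344 at 24 h and 281, 278, 320.3, 304 and 318 at 5 days. The treated libraries were below the controls in each line, and the log2 fold changes at 24 h were -0.69 ± 0.15, -0.58 ± 0.13 and -0.65 ± 0.11 (SE) in the 3 lines in turn. The IMR-32 value was -0.43 without control replicate 5 and -0.49 without culture 5, both under the fold limit. At the longer time SK-N-BE(2)C and SH-SY5Y reached -1.52 ± 0.16 and -1.13 ± 0.11, and IMR-32 -0.61 ± 0.13. MFSD11 on the opposite strand shares 27.7% of the exon bases of SRSF2.

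SRSF7 (9G8) and SRSF3 (SRp20) are the SR proteins best known for carrying spliced mRNA to the export machinery. SRSF7 had SK-N-BE(2)C libraries at 241, 252, 251, 246 and 234 CPM in controls, 173, 189, 152, 150.5 and 161 at 24 h and 128, 64.9, 55.9, 96.3 and 90.2 at 7 days, a log2 fold change of -1.53 ± 0.17 (SE; adjusted p = 1.22e-06) at 7 days. In SH-SY5Y it went from 232, 223, 263, 232 and 226 CPM to 136, 120.1, 153, 158 and 144 and 58.1, 77.1, 102, 101 and 129.9 CPM, with -1.40 ± 0.16 at 5 days. In IMR-32 the levels were 220.0, 208, 255, 215 and 297 CPM in controls, 160.1, 182, 170.4, 155 and 184 at 24 h and 157, 144, 178, 161 and 195 at 5 days. No treated group overlapped its control. The step after 24 h was called at -0.94 and -0.66 in SK-N-BE(2)C and SH-SY5Y, and was -0.09 in IMR-32 (adjusted p = 0.59, edgeR's quasi-likelihood test). The 5 day IMR-32 value of -0.53 was -0.48 without 5 day replicate 2. SRSF3 stood at 484 ± 8.94, 332 ± 10.6 and 194 ± 54.4 CPM (SD, n = 5) in SK-N-BE(2)C at control, 24 h and 7 days. Its longer-time log2 fold changes were -1.36 ± 0.15, -0.63 ± 0.10 and -1.31 ± 0.13 in the 3 lines in turn. SRSF4, a lower-level member, fell in the 3 lines at the longer time, at -0.71 ± 0.10, -0.57 ± 0.06 and -0.56 ± 0.06. With SK-N-BE(2)C replicates 3 to 5 summed to 1 library, the 24 h values of SRSF3 and SRSF7 in that line were -0.55 and -0.54 and no longer called.

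**Figure D4:**
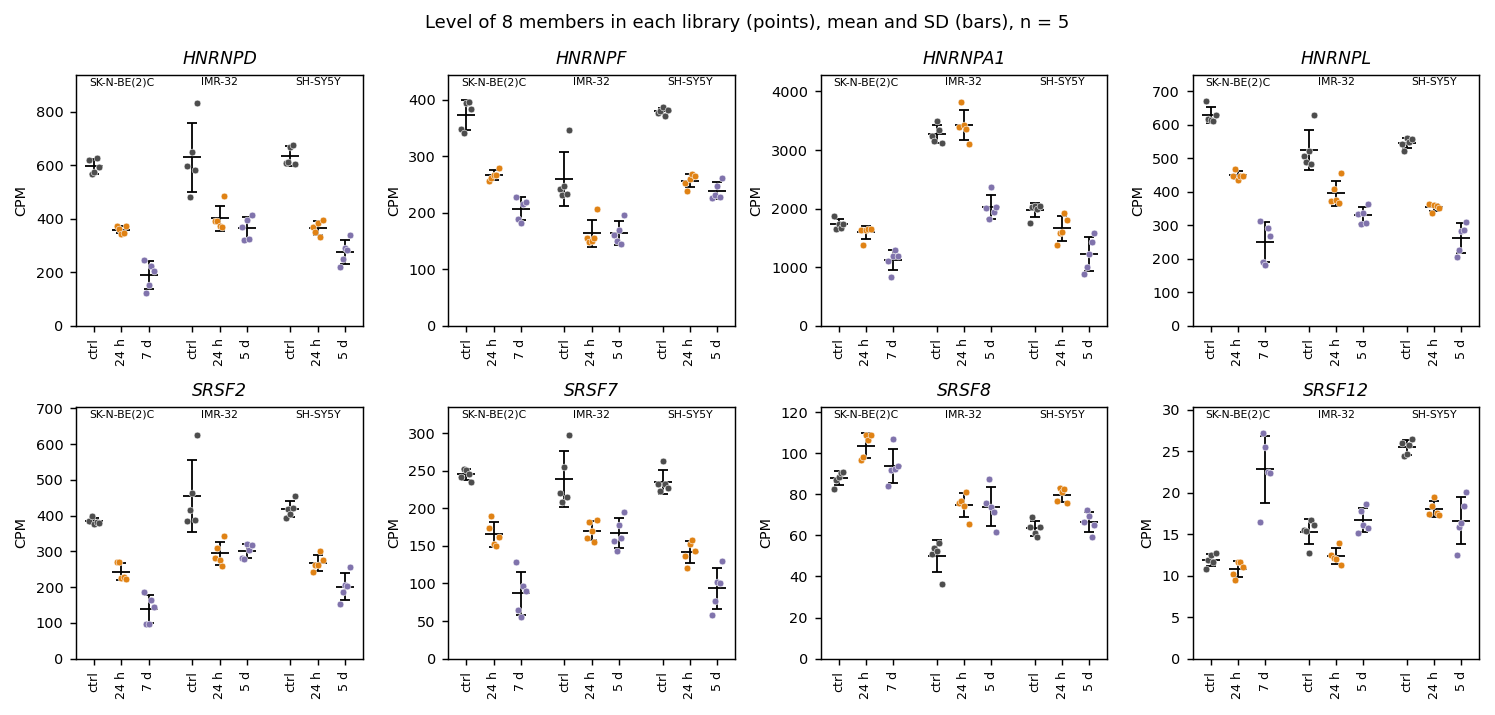
CPM of HNRNPD, HNRNPF, HNRNPA1, HNRNPL, SRSF2, SRSF7, SRSF8 and SRSF12 in each library (points) for control, 24 h and the longer PB treatment of each line, with the mean and SD of 5 libraries (bars). HNRNPA1 falls mainly after 24 h, SRSF8 is highest at 24 h in SK-N-BE(2)C and SH-SY5Y, and SRSF12 falls in SH-SY5Y but rises in SK-N-BE(2)C at 7 days.

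Other SR protein genes took another course. SRSF12, a relative of the splicing repressor SRSF10 (chr6:89805678-89827790, minus strand, GRCh37), had SK-N-BE(2)C libraries at 10.8, 11.8, 12.5, 11.6 and 12.7 CPM in controls, 10.2, 9.43, 11.6, 11.7 and 11.1 at 24 h and 16.5, 27.2, 25.5, 22.5 and 22.4 at 7 days. Every 7 day library was above every control, with a log2 fold change of 0.90 ± 0.11 (SE; adjusted p = 1.45e-06), 1.86-fold higher. In SH-SY5Y, where it was highest untreated, it fell from 26.0, 24.5, 24.6, 25.8 and 26.4 CPM to 17.4, 18.3, 19.5, 17.6 and 17.3 at 24 h and 12.5, 15.8, 16.3, 18.4 and 20.1 at 5 days. IMR-32 stood between, at 15.5, 15.4, 12.7, 16.7 and 16.1 CPM in controls, 12.5, 12.1, 12.0, 13.9 and 11.3 at 24 h and 15.2, 17.8, 16.2, 18.6 and 15.7 at 5 days. The longer-time log2 fold change was -0.68 ± 0.10 in SH-SY5Y and 0.11 ± 0.09 in IMR-32, the latter not called. The interval of the IMR-32 value was -0.07 to 0.30. The 24 h value in SH-SY5Y, -0.51, lost its call without control replicate 5 or 24 h replicate 1 or 5, with values from -0.49 to -0.50. Since the longest treatment lasted 7 days for SK-N-BE(2)C and 5 for the other lines, the opposite directions were not tested against each other.

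SRSF8 (chr11:94800083-94804388, plus strand, GRCh37) rose in IMR-32, from 50.8, 53.9, 52.4, 56.5 and 36.5 CPM in controls to 75.8, 76.8, 74.4, 80.9 and 65.4 at 24 h and 75.7, 87.6, 73.9, 71.3 and 61.6 at 5 days. Replicate 5 was the lowest library in each group, and all treated libraries lay above all controls. The log2 fold changes were 0.63 ± 0.11 (SE; adjusted p = 0.000437) and 0.55 ± 0.11 (SE; adjusted p = 0.000683), and the 24 h one stayed past the limit at 0.54 without control replicate 5, while the 5 day one was 0.47 without it and 0.49 without 5 day replicate 2. In SH-SY5Y SRSF8 went from 63.9, 69.0, 61.2, 59.4 and 64.2 CPM to 76.8, 83.0, 81.0, 82.3 and 75.7 at 24 h and back to 66.5, 72.4, 69.6, 59.0 and 65.2 at 5 days, and in SK-N-BE(2)C from 82.7, 86.8, 88.5, 90.2 and 90.9 to 96.5, 97.9, 109, 106 and 109 and 83.9, 92.0, 107, 92.3 and 93.5 CPM. These 24 h differences, 0.32 ± 0.06 and 0.21 ± 0.06, had adjusted p of 0.000208 and 0.00773 by edgeR's quasi-likelihood test but were under the fold limit.

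SRSF6 (SRp55), an activator of many cassette exons, showed values of opposite sign in IMR-32 and SH-SY5Y, though neither was called against control. IMR-32 held 222, 243, 305, 228 and 336 CPM in controls, 268, 238, 299, 252 and 239.9 at 24 h and 319, 339.8, 384, 372 and 317 at 5 days, and SH-SY5Y 226, 225, 226, 216 and 239.7, 154, 167, 148, 172 and 172 and 156, 155, 179.7, 159 and 214 CPM. The 5 day log2 fold changes were 0.36 ± 0.12 and -0.46 ± 0.08, with adjusted p of 0.0169 and 0.0001 by edgeR's quasi-likelihood test. In IMR-32 the 5 day libraries overlapped the controls through control replicate 5, and the other 4 controls lay below all of them. SRSF5 (SRp40), chosen after its values were seen, also stood apart, with IMR-32 libraries at 143, 141, 160.0, 156 and 123 CPM in controls, 199, 209.7, 198, 195 and 142 at 24 h and 178, 192, 194, 194 and 163 at 5 days. Its log2 fold changes there were 0.43 ± 0.10 and 0.34 ± 0.10, under the fold limit, and in the other lines they ran from -0.16 to 0.29 against control, none of them past adjusted p of 0.05.

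Whether the response differed between lines was tested at matched times in a fit of all 45 libraries, as the difference of the log2 fold changes. At 24 h edgeR's quasi-likelihood test called 0 of 32 members in each of 3 pairs of lines, where 1.71% and 2.78% of all genes were called lower and higher for SK-N-BE(2)C minus IMR-32, 1.09% and 0.946% for SK-N-BE(2)C minus SH-SY5Y, and 2.03% and 1.04% for IMR-32 minus SH-SY5Y. At unadjusted p under 0.05 the counts were 8, 4 and 14 (all genes 20.2%, 15.8% and 16.8%), at adjusted p alone 3, 0 and 6 (all genes 6.89%, 3.13% and 4.35%), and DESeq2 called 0 in each pair. The median difference over members was -0.15, 0.04 and 0.25 for these pairs. With replicate number as a block within lines, SRSF5 was called for SK-N-BE(2)C minus IMR-32 (-0.54, adjusted p = 0.00406, edgeR's quasi-likelihood test), as were 6.88% of all genes. Without IMR-32 culture 5, 1 member was called for SK-N-BE(2)C minus IMR-32 and 1 for IMR-32 minus SH-SY5Y (all genes 6.05% and 4.31%), and without replicate 5 of every line the counts were 1 and 2 (5.33% and 3.45%).

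At 5 days 7 members differed between IMR-32 and SH-SY5Y, all 7 with the higher log2 fold change in IMR-32, where 9.46% of all genes were called higher and 11.3% lower. The differences were 0.88 ± 0.18 (SE) for SRSF1, 0.81 ± 0.22 for SRSF7, 0.77 ± 0.15 for HNRNPA3, 0.76 ± 0.13 for SRSF6, 0.74 ± 0.14 for SRSF12, 0.72 ± 0.21 for HNRNPM and 0.62 ± 0.19 for SRSF3. Over the 32 members the difference ran from -0.07 to 0.88 with a median of 0.41. For SRSF1 the adjusted p was 0.000291 by edgeR's quasi-likelihood test, and the 95% normal interval of the difference was 0.52 to 1.24. The lowest differences were those of SRSF4 (-0.07) and SRSF5 (-0.01), and among the hnRNP genes those of HNRNPF and HNRNPA1, at 0.01 and 0.00, with 95% normal intervals of -0.25 to 0.26 and -0.31 to 0.32. The count was 13 without IMR-32 culture 5 (all genes 24.0%), 14 without replicate 5 of every line (23.9%) and 12 without a filter on low counts (10.8%, with 35 members tested), against 20.8% of all genes with all libraries and the filter. It was 5 without replicate 1 (15.8%), where HNRNPM (0.53) and SRSF3 (0.48) were not called. With replicate number as a block, SRSF8 and SRSF10, each at 0.50, were also called (all genes 23.9%).

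**Figure D5:**
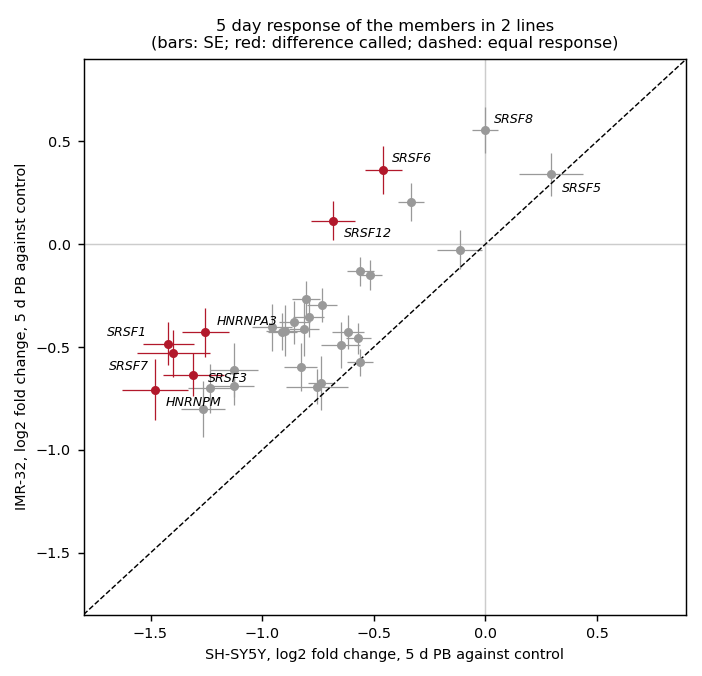
Log2 fold change against control after 5 days of PB in SH-SY5Y (x axis) and IMR-32 (y axis) for 32 members, with SE bars; red marks the 7 members whose difference was called and the dashed line marks equal responses. Most points lie above the dashed line, with SRSF1 at -1.42 in SH-SY5Y and -0.48 in IMR-32.

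The timing of the calls can be read from the steps. Of the 22 members lower at 7 days in SK-N-BE(2)C, 14 were already called at 24 h, 10 were called between the times, 8 at both steps and 6 at neither. Of the 3135 genes called lower there, 36.2% were called at 24 h, 49.3% between the times, 8.80% at both and 23.4% at neither. The corresponding counts in SH-SY5Y were 18, 5, 5 and 9 of 27 (over all 2513 genes called lower, 49.8%, 25.7%, 4.66% and 29.2%). In IMR-32 3 of the 11 were called at 24 h, 2 between the times, 0 at both and 6 at neither (over all 2210 genes called lower, 45.5%, 36.7%, 5.34% and 23.2%). Without IMR-32 control replicate 5, 9 were called lower at 5 days and 0 of them at 24 h.

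The members not yet described mostly followed the same direction, and their values are given so that each is accounted for. HNRNPH1 and HNRNPH3, G-run binders like HNRNPF, had longer-time log2 fold changes of -0.75, -0.26 and -0.80 and of -0.81, -0.42 and -0.90 in the 3 lines in turn. HNRNPDL, a relative of HNRNPD, had -0.61, -0.38 and -0.86, and HNRNPU, a large nuclear protein that binds RNA and chromatin, -0.78, -0.41 and -0.81. HNRNPR, HNRNPUL1 and HNRNPUL2 lay between -0.91 and -0.54 in the same lines, with IMR-32 at -0.43, -0.46 and -0.42. The readthrough gene HNRNPUL2-BSCL2 on the same strand shares 44.3% of the exon bases of HNRNPUL2. For these 7 genes the SK-N-BE(2)C and SH-SY5Y values were called and the IMR-32 values were not.

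HNRNPC, which binds U-rich stretches, HNRNPA0 and HNRNPLL, an HNRNPL relative, were called in SH-SY5Y, at -0.79, -0.56 and -0.52. Their values in the other lines ran from -0.35 to -0.13 and were not called. SRSF10, a regulator that represses splicing when dephosphorylated, fell in SK-N-BE(2)C (-0.90 ± 0.10) and SH-SY5Y (-0.96 ± 0.09), and in IMR-32 it was called at 24 h (-0.54) but not at 5 days (-0.40). SRSF9, a small relative of SRSF1, was called at 24 h in no line and fell at the longer time in SK-N-BE(2)C (-0.63) and SH-SY5Y (-0.65). In IMR-32 its 5 day value of -0.49 was not called, although every 5 day library lay below every control, and the step after 24 h, -0.50, was. GATC on the opposite strand shares 43.6% of the exon bases of SRSF9. SRSF11 was not called in any line, with -0.27, 0.20 and -0.33.

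Members with too few counts to test were HNRNPCL1, HNRNPCL2 and HNRNPH2. HNRNPH2, an HNRNPF relative on chromosome X, was listed at 0 to 0.113 CPM in all 45 libraries, and a readthrough gene on the same strand shares 15.8% of its exon bases. HNRNPCL1 and HNRNPCL2, copies of HNRNPC, reached at most 0.109 and 0.0420 CPM. HNRNPA1L2, whose exons lie wholly within those of another annotated gene on the same strand, was tested and not called in any line, with longer-time log2 fold changes of -0.13, -0.03 and -0.12.

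Splicing proteins outside the naming rule came from lists of hnRNP-type proteins under other symbols (30 genes) and of SR kinases and SR-related proteins (32 genes). Of the first list 14 of 29 tested fell and 2 rose in SK-N-BE(2)C at 7 days, 6 of 30 fell and 1 rose in IMR-32, and 19 of 29 fell in SH-SY5Y at 5 days (medians -0.49, -0.27 and -0.62), where 22.3%, 15.5% and 17.3% of all genes were called lower and 24.5%, 16.6% and 18.6% higher in the 3 lines in turn. SFPQ, a paraspeckle protein, and PTBP1, a repressor of neuronal exons, had the largest mean change among those called alike in the 3 lines. PTBP1 was at 809 ± 26.3, 568 ± 38.4 and 377 ± 54.4 CPM in SK-N-BE(2)C, and its longer-time log2 fold changes were -1.14 ± 0.09, -1.15 ± 0.11 and -1.10 ± 0.07 in the 3 lines in turn. SFPQ had -1.44 ± 0.15, -0.63 ± 0.08 and -1.34 ± 0.11.

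Of the SR kinases and SR-related proteins, 6 fell and 3 rose at 7 days in SK-N-BE(2)C (32 tested), 3 fell and 4 rose in IMR-32 (31 tested), and 7 fell and 2 rose in SH-SY5Y (32 tested), with medians of -0.25, -0.09 and -0.27, against the same shares of all genes. TRA2B, an activator that binds GAA-rich enhancers, fell with log2 fold changes of -1.52 ± 0.17, -0.54 ± 0.10 and -1.21 ± 0.12. CLK4, a kinase that phosphorylates SR proteins, rose in the 3 lines, with SK-N-BE(2)C libraries at 18.8, 21.3, 16.1, 15.4 and 15.1 CPM in controls and 30.0, 51.9, 39.2, 34.7 and 36.0 at 7 days. Its log2 fold changes were 1.10 ± 0.13, 0.93 ± 0.21 and 0.58 ± 0.11 (SE). The SK-N-BE(2)C groups did not overlap. For IMR-32 the level went from 6.16 ± 1.58 CPM (SD, n = 5) in controls to 11.8 ± 2.93 at 5 days.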

How the data were processed

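Poly(A) RNA of 45 libraries was prepared with a directional kit and sequenced as paired reads. The authors trimmed reads with Trim Galore (0.6.4) and mapped them to hg19 with STAR (2.6.1d in the submitters' processing notes), which also gave raw counts per gene. Which strand column was taken is not stated in those sources. CPM values deposited by the authors equal each count scaled by the total of its library. The deposited tables of the authors' own DESeq2 (1.32.0) comparisons, with fold changes and p-values, were not used. Here counts were tested with edgeR's quasi-likelihood test (4.0.16, R 4.3.3, TMM factors, filterByExpr minimum count 10) within each line, and between lines in 1 fit of all libraries, with Benjamini-Hochberg adjusted p under 0.05 and absolute log2 fold change over 0.5. Levels per kb used merged GRCh37 exons. The fits were tested on simulated data. Replicates are separate passages. Deviations of same-numbered replicates from their group means were positively correlated in every comparison within a line. The lowest correlation over IMR-32, SH-SY5Y and SK-N-BE(2)C at 24 h was 0.109. In SK-N-BE(2)C at 7 days the lowest was 0.097 against control and 0.048 against 24 h. Between untreated lines the correlations ran from -0.067 to 0.129. The main fits held no replicate term. Genes with detailed values were named by rule: called alike in 3 lines, called higher, among the 3 largest changes of a line, differing between lines, among the 5 highest untreated levels per kb of merged exon, or too low to test. Other members (SRSF5, SRSF9, SRSF10, SRSF11, HNRNPA1L2 and the hnRNP genes given only as fold changes) were named after their values were seen. Members and lists were chosen with earlier results of these data known. Alternatives were RLE factors, library size alone, no filter, no fold limit, DESeq2 (1.42.0), a replicate block, IMR-32 culture 5 left out, SK-N-BE(2)C replicates 3 to 5 summed, and single libraries left out. Family sums without IMR-32 replicate 5 were added after seeing the data.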

Additional observations from a re-analysis of the deposited data

Results flagged for a closer look

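Within each group of 5 libraries, the CPM of 17 members and 3 family sums was checked for a library far from the others (a gap to its nearest neighbour above 0.71 of the whole range), and 14 of 180 sets of 5 had one. Chance alone gives about 1 in 20 such sets. IMR-32 replicate 5 accounted for 8 of them. In IMR-32 controls it was the highest library for HNRNPF (346 CPM), HNRNPL (629 CPM), SRSF1 (816 CPM) and HNRNPA3 (962 CPM), and the lowest for SRSF8 (36.5 CPM). At 24 h it was the highest for HNRNPD (484 CPM), HNRNPF (207 CPM) and HNRNPA3 (645 CPM). The other 6 lay in the remaining lines: HNRNPA1 was low in SK-N-BE(2)C 24 h replicate 2 (1384 CPM) and in SH-SY5Y control replicate 1 (1753 CPM), HNRNPL and SRSF1 were high in SK-N-BE(2)C control replicates 1 (670.1 CPM) and 2 (621 CPM), SRSF4 was high in SK-N-BE(2)C 24 h replicate 1 (58.3 CPM), and SRSF7 was high in SH-SY5Y control replicate 3 (263 CPM).

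The 5 day response differed between IMR-32 and SH-SY5Y by edgeR's quasi-likelihood test of the difference for SRSF1 (0.88 on the log2 scale), SRSF7 (0.81), HNRNPA3 (0.77), SRSF6 (0.76), SRSF12 (0.74), HNRNPM (0.72) and SRSF3 (0.62).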

How the results depend on the processing

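Of 2301 alternative values for 109 pairs of a member and a comparison, 2209 kept their direction and side of the limits, 26 lost a call, 48 gained one and 18 changed sign without being called. The fold limit mattered most. With adjusted p alone, members called numbered 26 (24 h; all genes 46.8%) and 24 (7 days against 24 h; 59.3%) in SK-N-BE(2)C, 18, 27 and 10 (24 h, 5 days, 5 days against 24 h; 33.1%, 51.0% and 34.4%) in IMR-32, and 28 and 25 (24 h, 5 days against 24 h; 49.2% and 43.5%) in SH-SY5Y. Under the same setting the 24 h responses differed for 3 (SK-N-BE(2)C minus IMR-32) and 6 (IMR-32 minus SH-SY5Y) members, the 5 day responses for 20 (all genes 6.89%, 4.35% and 30.6%), and untreated levels for 18, 17 and 20 (78.0%, 74.9% and 72.6%). Without a filter on low counts the 5 day difference had 12 members (all genes 10.8%); for other counts, higher and lower together, DESeq2, RLE factors, library size alone and no filter stayed within 1.5 times, while the untreated split by direction moved more (SK-N-BE(2)C over IMR-32 from 4 to 2 with RLE factors, no filter and DESeq2, and over SH-SY5Y from 6 to 3 with library size alone). With IMR-32 culture 5 left out, the 24 h differences involving IMR-32 had 1 and 1 members and the 5 day difference 13 (all genes 6.05%, 4.31% and 24.0%).

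Leaving out 1 library at a time gave 1 to 7 members for IMR-32 at 24 h (all genes 15.5% and 21.7% at these extremes). For SH-SY5Y at 5 days against 24 h it gave 3 to 9 (15.2% and 18.8%). Leaving out the same replicate number from every line gave 0 to 1 and 0 to 2 for the 24 h differences of SK-N-BE(2)C minus IMR-32 and IMR-32 minus SH-SY5Y, and 5 to 14 for the 5 day difference. All genes called ran from 2.28% to 5.33%, from 1.40% to 3.45% and from 15.8% to 23.9% in these fits. Sign changes concerned values near 0. HNRNPM in IMR-32 at 24 h ran from -0.20 to 0.021 without single libraries. SRSF6 in IMR-32 at 24 h was -0.033 with RLE factors, -0.042 with library size alone, -0.011 without a filter and -0.036 with DESeq2, and ran from -0.063 to 0.11 without single libraries. SRSF8 ran from -0.0067 to 0.071 in SK-N-BE(2)C at 7 days, and in SH-SY5Y at 5 days it was 0.067 with library size alone, 0.00097 without a filter and -0.037 to 0.038 without single libraries. The cause was not tested.

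With replicate number as a block, SK-N-BE(2)C minus IMR-32 at 24 h had 1 member called and SH-SY5Y at 5 days against 24 h had 7. The 5 day difference had 9, and no other call changed. The shares of all genes called in either direction were 6.88%, 17.4% and 23.9% in turn, against 4.49%, 16.7% and 20.8% without the block. HNRNPCL1, HNRNPCL2 and HNRNPH2 had too few counts to be tested, and the part of shared exons in the low HNRNPH2 counts was not tested.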
